A study of Mus musculus with 4 samples.

Results

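The genes described here set the activity of mTORC1, the kinase complex that couples nutrients and growth factors to cell growth, and of AMPK, the kinase that senses a fall in cellular energy. They were chosen by gene symbol from a list of 34 regulators, by their known roles and not by a measured threshold. Of these, 33 were found among the 16218 genes of the count table. The other, Castor1, an arginine sensor, was listed under its older symbol Gatsl3 (RefSeq synonym) and stands outside the counts given here. Poly(A)-selected RNA of the thyroid had been sequenced with paired ends in NOD.H-2h4 mice, which develop autoimmune thyroiditis. One group (n = 2) had received isotype control IgG and the other (n = 2) an antibody against PD-L1, in both cases 3 injections a week for 2 weeks. The batch field of the labels named clones LTF2 and LTF3 for the IgG libraries and 10F.9G2 and 10F.9G3 for the anti-PD-L1 libraries, a different string for each library. The comparison asks which thyroid genes and pathways differ when PD-L1 is blocked.

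mTORC1 consists of the kinase mTOR with the scaffold Raptor, mLST8 and the inhibitory subunits PRAS40 and DEPTOR, and it works on the lysosome surface. Rag GTPases bring it there when amino acids are present, and the small GTPase Rheb switches it on unless the TSC complex keeps Rheb inactive. AMPK, activated by the kinase LKB1 when ATP falls, restrains mTORC1 through TSC2 and Raptor, while AKT relieves the restraint by TSC2. When mTORC1 is active it promotes translation through S6 kinase and 4E-BP1 and holds back autophagy. Most of this control runs through phosphorylation and protein location, which RNA counts do not measure.

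Library totals ranged from 75591923 to 79663374.5 counts. All 33 regulators were well covered, the lowest count of a regulator in a library being 707 (Nprl2), and all passed the filter on low counts. The follicular cell markers Tg, Pax8, Nkx2-1 and Foxe1 were present in every library. The libraries of each group differed in tissue content. In CPM (a gene's count relative to the library total, scaled by the trimmed mean of M-values, TMM), 12 summed follicular cell markers reached 155800 and 150350 under IgG, against 46138 (replicate 1) and 167242 (replicate 2) under anti-PD-L1. Most of each sum was Tg, and the other 11 summed to 3030 and 1818 against 1472 and 4755, in the same order of libraries. Summed CPM of 12 skeletal muscle markers ran the other way, at 42667 and 58352 under IgG, against 69778 (replicate 1) and 25817 (replicate 2) under anti-PD-L1. The IgG libraries differed from each other in airway and mucosal markers (3883 and 18068 CPM), squamous epithelial markers (11042 and 2948 CPM) and parathyroid markers (3515 and 1202 CPM). Xist stood at 1.402 CPM in anti-PD-L1 replicate 1 and at 67.7 to 72.7 CPM elsewhere, and the Y-linked Ddx3y at 62.6 CPM there and 0.350 to 0.790 CPM elsewhere. In whole tissue, fewer cells of a type and less RNA per cell cannot be told apart. By Xist and Ddx3y, anti-PD-L1 replicate 1 came from a male and the other libraries from females. The anti-PD-L1 libraries thus came from different mice. The labels give no sex and do not say outright that each library came from its own mouse, so p-values measure only the spread between these libraries.

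Ddit4 was the regulator that separated the groups most. It encodes REDD1, an inhibitor of mTORC1 that acts through the TSC complex and is known as a gene induced by hypoxia, glucocorticoids, DNA damage and the integrated stress response. Ddit4 had 32.8 and 27.8 CPM under IgG and 50.5 and 51.2 CPM under anti-PD-L1. The treated values both lay above the control values, and they were closer to each other than the IgG libraries were. The log2 fold change, anti-PD-L1 minus IgG, was 0.75 ± 0.16 (SE, n = 2 per group), a 1.68-fold higher level with a 95% interval of 0.33 to 1.16 on the log2 scale. It did not pass over all genes in the quasi-likelihood test of edgeR, adjusted by Benjamini and Hochberg's method (unadjusted p = 0.00666, adjusted p = 0.322). DESeq2 called it (DESeq2 adjusted p = 0.0244), but that call was lost without IgG replicate 1 or IgG replicate 2 (DESeq2 adjusted p = 0.9999 and 1) and without anti-PD-L1 replicate 2 (DESeq2 adjusted p = 0.0704), and held without anti-PD-L1 replicate 1 (DESeq2 adjusted p = 0.036). The log2 fold change ranged from 0.63 to 0.86 when any 1 library was left out, with either tool.

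Markers of several other cell types also separated the groups. All 12 T cell markers had both treated libraries above both controls, with summed CPM of 54.6 and 88.0 against 219 and 222. Of 11 macrophage markers other than Lyz2, 9 did so, with summed CPM of 224 and 300.3 against 1113 and 998. Lyz2 was set aside after its values were seen, since it made up most of the sum of all 12 (1104 and 5783 against 12834 and 3415 CPM, groups overlapping). All 15 genes of an interferon-gamma response list did so too, with summed CPM of 261 and 286 against 1517 and 1492. Of 8 cartilage markers, 5 lay lower in both treated libraries, with summed CPM of 206 and 246 against 106 and 160 for all 8. These 5 differed in size, Acan, the gene of aggrecan, falling most (56.3 and 75.1 CPM against 7.35 and 10.6 CPM). Hapln1, Comp and Matn3 had log2 fold changes of −2.18, −1.89 and −1.33, and Col2a1 had −0.25 ± 0.19. The groups overlapped for Col9a1, Col11a2 and Sox9. Sox9 was the largest part of the sum in every library (97.2 and 106 against 61.7 and 113 CPM). The part of these cells and of this response in the Ddit4 value was not tested.

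Ddit4 lies on chromosome 10 from 59949669 to 59951834 of GRCm38, on the minus strand. The 186 bases that precede both its RefSeq and its GENCODE start (chr10:59951835-59952020, minus strand, RefSeq promoter table on GRCm38) are shown because this is the regulator with the clearest group difference. The capitals mark ACGTG, a form of the core letters of the hypoxia-response element. The form GCGTG was not searched and is not marked.
Ddit4: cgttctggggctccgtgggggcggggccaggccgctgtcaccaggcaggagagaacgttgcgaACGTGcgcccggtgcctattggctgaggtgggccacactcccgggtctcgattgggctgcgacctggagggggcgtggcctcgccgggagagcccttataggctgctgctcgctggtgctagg
ACGTG, on either strand, occurred in 16.6% of all 32851 windows of 250 bases before a start in that table, so its presence here is a description of the sequence. TGATGNAA, letters of the element bound by ATF4, the effector of the integrated stress response, occurred in 3.5% of all windows and in 0 of the 36 windows of the 31 regulators with an entry.

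**Figure D1:**
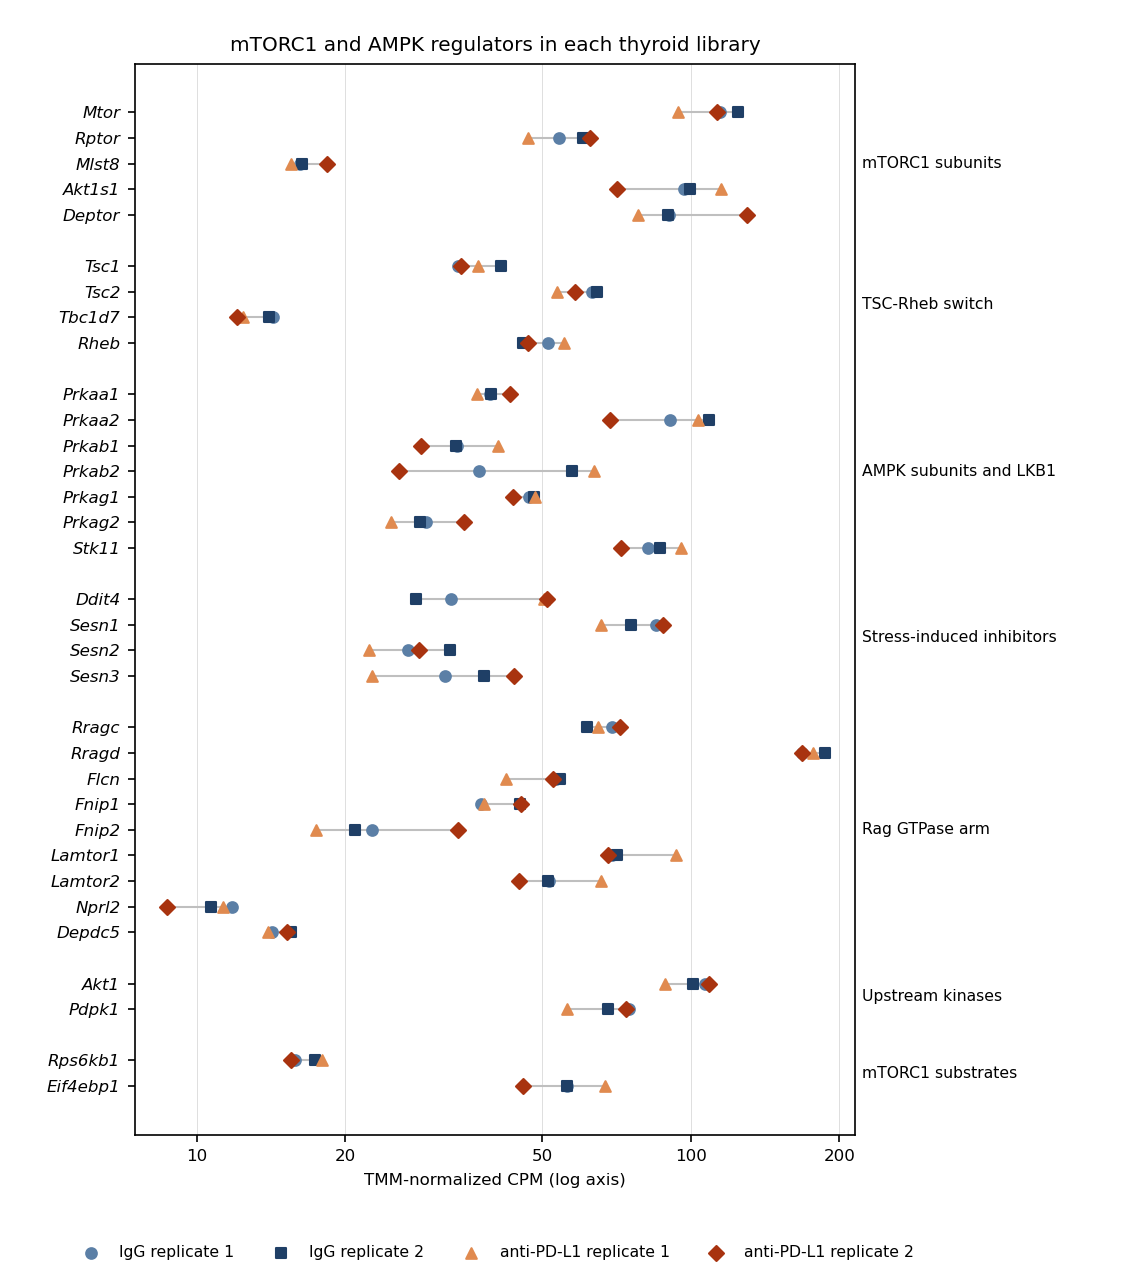
TMM-normalized CPM (log axis) of the 33 regulators in each of the 4 libraries, grouped by role, with a grey line from the lowest to the highest library. Ddit4 is the only regulator with both treated libraries above both controls, a pattern found in 16.5% of all tested genes. For most other regulators the IgG values lie close together while the anti-PD-L1 libraries lie apart.

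Across the 33 regulators, edgeR called 0 at an adjusted p under 0.05 (0% of all 16217 tested genes), DESeq2 called 1 higher (2.93% of genes) and 0 lower (0.327%), and limma voom called 0 (Ddit4 alone at an unadjusted p under 0.05 in voom, against 6.43% of genes). Ddit4 alone had an unadjusted edgeR p under 0.05, as a higher value (4.96% of all tested genes), with 0 lower (1.1%). Both treated libraries lay above both controls in 1 regulator (16.5% of genes) and below in 4, namely Mtor, Tsc2, Tbc1d7 and Flcn (13.1% of genes). The other 28 overlapped. The median log2 fold change of the regulators was −0.04, against 0.00021 over all tested genes, and 14 lay above 0 and 19 below. The median absolute log2 fold change was 0.07, against 0.15 over all tested genes and 0.12 over the 9405 tested genes within the regulators' range of mean level (10.6 to 175 CPM). Without Ddit4 the regulators ranged from −0.23 (Sesn2) to 0.23 (Fnip2), and each had an edgeR adjusted p of 0.9997.

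The intervals say how large a change these libraries allow. For 29 of the 33 regulators (87.9%) the 95% interval of the log2 fold change lay within −1 to 1, that is, within a 2-fold change in either direction. This was so for 64.6% of all tested genes and for 77.8% of those in the same range of level. The exceptions were Ddit4, whose interval reached 1.16, Fnip2 (−0.71 to 1.18), Prkab2 (−1.43 to 1.27) and Sesn3 (−1.03 to 0.89).

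**Figure D2:**
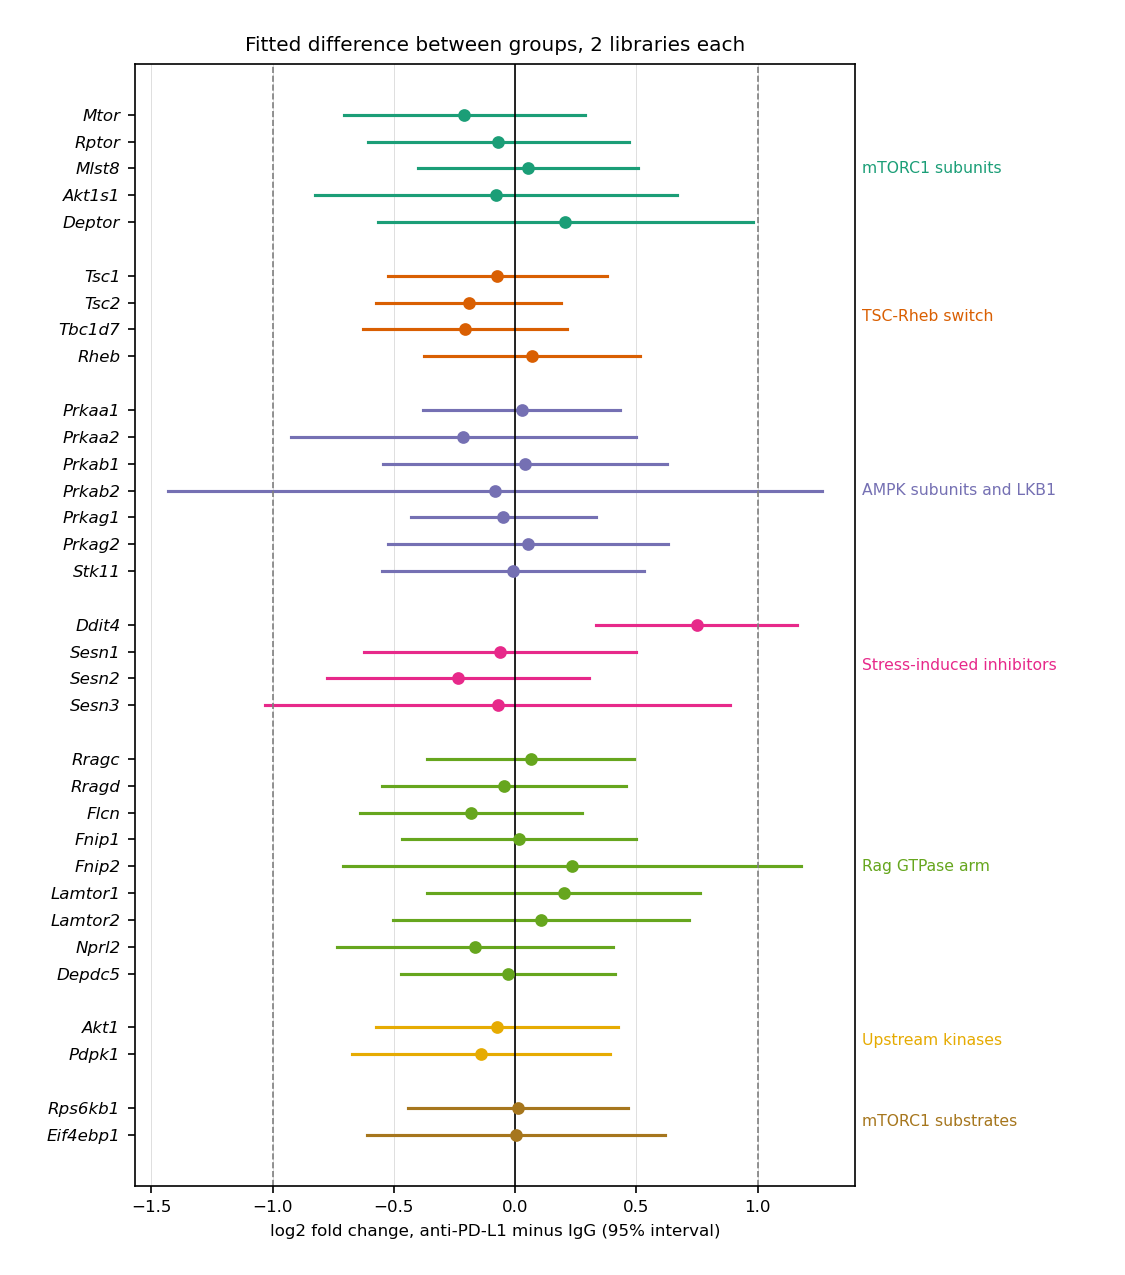
Fitted log2 fold change (anti-PD-L1 minus IgG) of the 33 regulators, with 95% intervals from edgeR's fit and dashed lines at a 2-fold change in either direction. Ddit4 has the single interval that leaves out 0 (0.33 to 1.16), before any adjustment for the number of genes, and Prkab2 has the widest (−1.43 to 1.27).

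None of the 5 genes of mTORC1 subunits passed the test, and their log2 fold changes ran from −0.21 to 0.21. Mtor, the kinase, had 115 and 125 CPM under IgG and 94.4 and 113 CPM under anti-PD-L1, both lower, with anti-PD-L1 replicate 2 close to IgG replicate 1. Its log2 fold change was −0.21 ± 0.19 (interval −0.71 to 0.29). Rptor, the gene of the scaffold Raptor, had 54.1 and 60.6 CPM against 46.9 and 62.4 CPM, and Mlst8, which stabilizes the kinase, 16.2 and 16.4 CPM against 15.5 and 18.3 CPM. In both genes the IgG values lay between the anti-PD-L1 values. The inhibitory subunits differed between the anti-PD-L1 libraries, in opposite ways. Akt1s1, the gene of PRAS40, had 97.0 and 99.6 CPM under IgG, 115 CPM in the first anti-PD-L1 library and 71.0 CPM in the second. Deptor had 90.4 and 89.8 CPM under IgG, 78.3 CPM in the first anti-PD-L1 library and 129.8 CPM in the second. The groups of both genes overlapped, and the edgeR log2 fold change of Deptor ran from −0.22 to 0.53 with any 1 library left out.

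None of the 4 genes of the TSC complex and its target passed the test. Tsc1, the scaffold that stabilizes the complex, had 33.7 and 41.4 CPM against 37.1 and 34.2 CPM, with overlapping groups. Tsc2, the subunit that inactivates Rheb, had 63.1 and 64.7 CPM against 53.7 and 58.3 CPM, giving a log2 fold change of −0.19 ± 0.14. Tbc1d7, the third subunit of the complex, had 14.3 and 13.998 CPM against 12.4 and 12.1 CPM, giving a log2 fold change of −0.21 ± 0.16. Tsc2 and Tbc1d7 thus had groups that did not overlap, with differences that did not pass the test. With any 1 library left out, the log2 fold changes ran from −0.26 to −0.13 for Tsc2 and from −0.23 to −0.20 for Tbc1d7. Groups that do not overlap keep their sign in such fits, so the sign adds no support. Rheb, the GTPase that activates mTORC1, had 51.5 and 45.8 CPM against 55.4 and 46.8 CPM.

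AMPK is a trimer of a catalytic alpha, a scaffolding beta and a nucleotide-binding gamma subunit, each with isoforms from separate genes. Prkaa1, the gene of alpha 1, had 39.2 and 39.4 CPM under IgG and 37.0 and 43.1 CPM under anti-PD-L1. Prkaa2, alpha 2, the isoform prominent in skeletal muscle, had 90.8 and 109 CPM against 104 and 68.6 CPM. Prkab1, beta 1, had 33.7 and 33.5 CPM against 40.7 and 28.5 CPM. The IgG libraries were nearly equal for alpha 1 and beta 1, and anti-PD-L1 replicate 2 was the lowest library for alpha 2 and beta 1. Prkab2, beta 2, also prominent in muscle, had the widest ratio of highest to lowest library among the regulators, with 37.2 and 57.5 CPM under IgG, 63.7 CPM in the first anti-PD-L1 library and 25.7 CPM in the second. Prkag1, gamma 1, had 47.1 and 48.1 CPM against 48.4 and 43.6 CPM, and Prkag2, gamma 2, had 29.1 and 28.3 CPM against 24.7 and 34.8 CPM. Stk11, the gene of LKB1, had 81.9 and 86.8 CPM against 95.6 and 72.2 CPM. None of these 7 genes had groups that did not overlap, and their log2 fold changes ran from −0.21 (Prkaa2) to 0.05 (Prkag2).

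The sestrins, stress-induced inhibitors that act on the Rag arm through GATOR2, had groups that overlapped, unlike Ddit4. Sesn1, induced by p53 and FoxO factors, had 84.9 and 75.6 CPM under IgG and 65.8 and 88.0 CPM under anti-PD-L1. Sesn2, a leucine sensor and target of ATF4, had 26.8 and 32.5 CPM against 22.3 and 28.1 CPM, giving a log2 fold change of −0.23 ± 0.20. Sesn3 had 31.7 and 38.2 CPM under IgG, 22.7 CPM in the first anti-PD-L1 library and 43.9 CPM in the second. In each of the 3 sestrins, anti-PD-L1 replicate 1 was the lowest library, as it was in 15 regulators (45.5%) and in 30.7% of all tested genes.

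In the Rag arm, Rragc and Rragd encode the Rag GTPases C and D, of which a RagA or RagB partner needs 1. Rragd had the highest CPM of the regulators, with 168 and 187 CPM under IgG and 177 and 168 CPM under anti-PD-L1. Rragc had 69.4 and 61.6 CPM against 64.9 and 72.1 CPM. Lamtor1, which anchors the Ragulator complex and thereby the Rags to the lysosome, had 69.4 and 71.0 CPM under IgG, 93.3 CPM in the first anti-PD-L1 library and 68.0 CPM in the second. Lamtor2, its partner, had 51.6 and 51.4 CPM, then 65.9 and 44.99 CPM. Both Ragulator genes had nearly equal IgG values and were highest in anti-PD-L1 replicate 1, as were 30.7% of all tested genes.

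Folliculin and its partners act on RagC and RagD as a GTPase-activating complex. Flcn had 53.4 and 54.3 CPM under IgG and 42.2 and 52.7 CPM under anti-PD-L1, giving a log2 fold change of −0.18 ± 0.17, with anti-PD-L1 replicate 2 close to both IgG libraries. Fnip1 had 37.5 and 45.04 CPM against 38.1 and 45.4 CPM. Fnip2 had 22.6 and 20.9 CPM under IgG, 17.4 CPM in the first anti-PD-L1 library and 33.7 CPM in the second. The 2 values of Fnip1 were close to the same pair in each group, while Fnip2 differed between the anti-PD-L1 libraries by more than between groups. Nprl2 and Depdc5, subunits of GATOR1, which switches RagA and RagB off, had 11.8 and 10.7 against 11.3 and 8.73 CPM (Nprl2) and 14.2 and 15.5 against 13.9 and 15.2 CPM (Depdc5). Gatsl3, the older symbol of Castor1, had 26.95 and 23.8 CPM against 16.4 and 28.4 CPM, with overlapping groups.

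Rragc, Fnip1 and Lamtor1 of this arm, and Rheb and Tbc1d7 of the TSC-Rheb switch, carry the E-box CACGTG before a RefSeq start, the core letters of the element bound by TFEB, a factor that mTORC1 itself keeps out of the nucleus by way of RagC and RagD. In the 250 bases before a RefSeq start (GRCm38), CACGTG was found in 5 of the 31 regulators with an entry (13.9% of their 36 windows) and in 6% of all windows, and each such match also holds ACGTG. The 30 bases around each match are shown on the gene's own strand, with the E-box in capitals, to let the flanks be compared. They lie at chr4:123917309-123917338 (Rragc), chr11:54438092-54438121 (Fnip1), chr7:101905757-101905786 (Lamtor1), chr5:24842440-24842469 (Rheb) and chr13:43171537-43171566 (Tbc1d7). The match of Rheb lies within the gene as GENCODE draws it, whose start is at 24842624 on the minus strand, and the others lie before both starts.
Rragc: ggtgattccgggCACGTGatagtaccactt
Fnip1: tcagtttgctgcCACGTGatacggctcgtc
Lamtor1: ctgccttcctatCACGTGccgcgggtccgc
Rheb: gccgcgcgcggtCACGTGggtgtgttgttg
Tbc1d7: ccggttaacatcCACGTGtgggtgggactc
The log2 fold changes of these 5 genes ran from −0.21 (Tbc1d7) to 0.20 (Lamtor1), and none passed the test. Rragd, Flcn and Fnip2 had no match in these windows.

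Of the upstream kinases, Akt1 had 107 and 101 CPM under IgG and 88.8 and 109 CPM under anti-PD-L1, and Pdpk1, the gene of PDK1, which phosphorylates AKT and S6 kinase, had 75.1 and 68.1 CPM against 56.1 and 73.8 CPM. Both were lowest in anti-PD-L1 replicate 1, as were 30.7% of all tested genes. Of the substrates, Rps6kb1, the gene of S6 kinase 1, had 15.8 and 17.4 CPM against 17.9 and 15.5 CPM, with an interval of −0.44 to 0.47. Eif4ebp1, the gene of 4E-BP1, which blocks the cap-binding factor eIF4E until mTORC1 phosphorylates it, had 56.2 and 56.1 CPM against 67.0 and 45.7 CPM, with an interval of −0.61 to 0.62. The fitted log2 fold changes of both were near 0 (0.01 for Rps6kb1 and 0.0031 for Eif4ebp1), and their sign changed with the scaling.

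Most regulators differed more between the anti-PD-L1 libraries than between the groups, as most genes of the table did. The median gap between the IgG libraries was 0.12 on the log2 scale and that between the anti-PD-L1 libraries 0.33, against 0.16 and 0.33 over all tested genes and 0.13 and 0.30 over those in the same range of level. The anti-PD-L1 gap was larger than the IgG gap in 27 of 33 regulators (81.8%, against 67.4% of all tested genes and 72.0% of those in the range), and it was larger than the absolute group difference in 30 (90.9%, against 70.5% and 74.2%). Both IgG values lay between the anti-PD-L1 values in 18 regulators (54.5%, against 33.7%). In 9 of these anti-PD-L1 replicate 1 was highest (Akt1s1, Prkab1, Prkab2, Prkag1, Stk11, Lamtor1, Lamtor2, Rps6kb1 and Eif4ebp1), and in 9 replicate 2 was highest (Rptor, Mlst8, Deptor, Prkaa1, Prkag2, Sesn1, Sesn3, Fnip2 and Akt1). These shares were not tested, and neither was the part of sex, in which the anti-PD-L1 libraries differed by Xist and Ddx3y.

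Summed marker lists shared some of these orders. The summed muscle markers rank the libraries from anti-PD-L1 replicate 2 through IgG replicates 1 and 2 to anti-PD-L1 replicate 1, and 6 regulators (18.2%, against 10.1% of all tested genes) had exactly this order, namely Akt1s1, Prkab2, Prkag1, Stk11, Lamtor1 and Rps6kb1. This is the order of a sum led by abundant genes. Of the single muscle markers, Myh2, Myh4, Atp2a1 and Ryr1 were highest in IgG replicate 2 and Myh7 in anti-PD-L1 replicate 2. Prkag3, the muscle gamma isoform and no member of the list, had the order of the muscle sum too, with 8.89 and 13.9 CPM under IgG, 18.9 CPM in the first anti-PD-L1 library and 5.29 CPM in the second. It was named outside the rule, not being among the genes of smallest p of its list. Prkaa2, also prominent in muscle, did not have this order and was highest in IgG replicate 2. The summed follicular cell markers have the reverse order, shared by Deptor, Prkag2, Sesn1, Fnip2 and Akt1 (15.2%, against 9.85%). Summed CPM of 10 adipocyte markers (1273 and 1022 under IgG, 663 and 1539 under anti-PD-L1) and of 8 endothelial markers (401 and 367, then 310 and 447) had that order as well. Of the single follicular cell markers, Slc5a5 and Dio1 were lowest in IgG replicate 2, and Duox2, Duoxa2 and Slc26a4 were highest in IgG replicate 1. Summed airway and mucosal (27382 CPM), B cell (136 CPM) and parathyroid markers (3645 CPM) were, like muscle markers, highest in anti-PD-L1 replicate 1. The part of these tissues in the regulators' values was not tested. Ddit4 followed neither order.

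**Figure D3:**
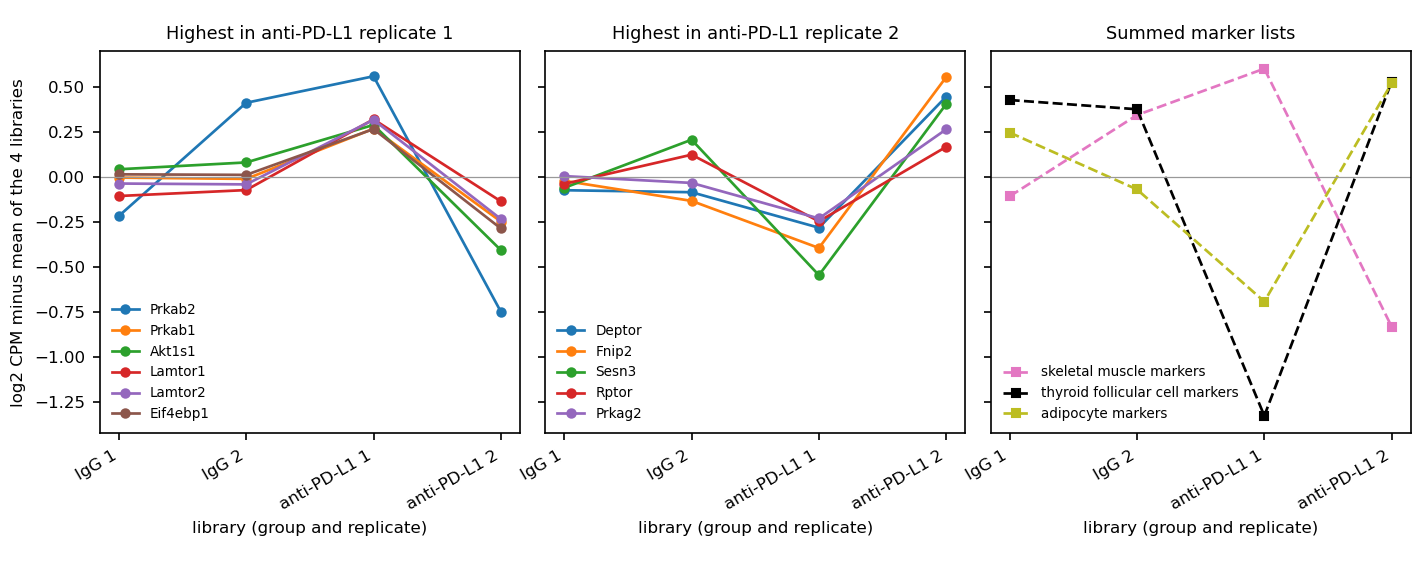
Log2 CPM of single regulators and of summed marker lists in each library, as the departure from the mean of the 4 libraries, with lines joining the values of 1 gene or list and carrying no order. The regulators on the left are some of those highest in anti-PD-L1 replicate 1, as the summed muscle markers are (69778 CPM). Those in the middle are some of those highest in replicate 2, as the summed follicular cell and adipocyte markers are. Both sets were picked for display, and the other regulators are not drawn.

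Levels of different genes were compared as CPM per kilobase of exon, using the merged exons of each gene in GENCODE release M21 (GRCm38), which understates genes with long untranslated ends or rarely used exons. Lamtor2 was highest, at 42.3 and 42.2 under IgG and 54.1 and 36.9 under anti-PD-L1, followed by Rragd (32.4 to 36.2) and Akt1s1 (23.1 to 37.5), whose ranges overlapped. Depdc5 (1.18 to 1.32) was lowest in every library, and above it the ranges of Rps6kb1 (1.79 to 2.07) and Sesn3 (1.48 to 2.87) overlapped. Within the AMPK gamma pair, Prkag1 held 78.8 to 85.4% of the summed level of Prkag1 and Prkag2 in every library. Within the alpha pair, Prkaa2 held 57.5 and 61.7% under IgG, and 62.1 and 48.2% under anti-PD-L1, the lowest share being in anti-PD-L1 replicate 2. That library had the lowest summed muscle markers and the highest summed follicular cell, adipocyte and endothelial markers. The part of these tissues in the share was not tested. Within the beta pair, Prkab2 held 39.9 and 50.8% under IgG, and 48.5 and 35.2% under anti-PD-L1. The order of Prkag1 and Prkag2 thus held in all 4 libraries, while the alpha and beta orders did not. Prkag3, no member of the list, was left out of the gamma comparison.

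Sesn1 was above Sesn2 and Sesn2 above Sesn3 in every library, with Sesn1 at 61.5 to 68.5% of the summed sestrin level. Sesn3 has 15.3 kb of merged exon against 3.98 kb for Sesn1, so its place depends on the length used. Rragd was above Rragc in every library (60.1 to 66.2% of their sum) and Fnip1 above Fnip2 (61.3 to 72.0%). The ranges of these shares overlapped between the groups. Merged exons of 5 regulators overlap an exon of another listed gene on the opposite strand (Akt1s1, Lamtor1, Rps6kb1, Stk11 and Tsc2), and since no strand setting is known, reads there cannot be told apart.

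**Figure D4:**
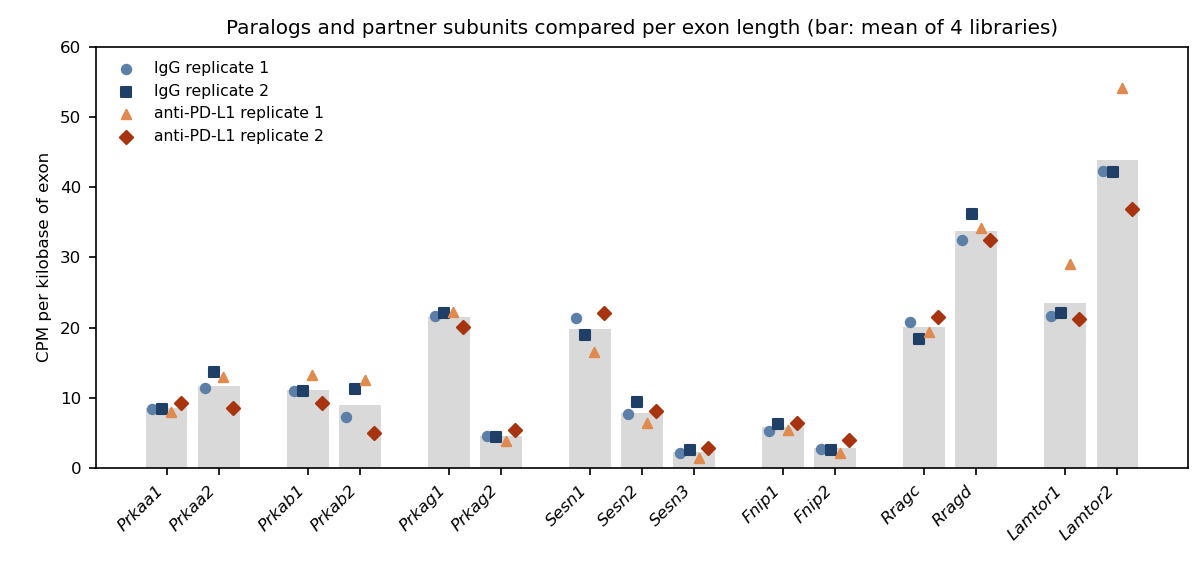
CPM per kilobase of merged exon for paralogs and partner subunits among the regulators, with a point for each library and a bar from 0 to the mean of the 4. Prkag1 lies above Prkag2, Sesn1 above Sesn2 and Sesn3, and Rragd above Rragc in all 4 libraries, while the order within the alpha and beta pairs changes between libraries.

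Further genes of the pathway were read from 11 lists that hold none of the regulators, 136 tested genes in all (4 of them in 2 lists). edgeR called 0 of them at an adjusted p under 0.05, DESeq2 called 4, all higher (2.94%, against 2.93% of all genes). At an unadjusted edgeR p under 0.05 there were 8 higher (5.88%, against 4.96% of all tested genes) and 2 lower (1.47%, against 1.1%), so these shares were near those of the whole table. Their median log2 fold change was 0.01. The lists nearest to the regulators held no such gene. Among 16 other Rag, Ragulator, GATOR and KICSTOR genes the log2 fold changes ran from −0.21 to 0.23, the smallest p values being those of Bmt2, the gene of the S-adenosylmethionine sensor SAMTOR (0.23 ± 0.14), and Sec13 (0.17 ± 0.14). The 4 genes of mTORC2 subunits ran from −0.05 to 0.28, with Prr5l at 0.28 ± 0.20 and Rictor, the scaffold of that complex, at −0.05 ± 0.20. The 8 other AMPK partners ran from −0.27 (Camkk2, a kinase that activates AMPK) to 0.18 (Strada, a partner of LKB1).

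Larger log2 fold changes, none past the test in edgeR, were found in the other lists. Among 12 AMPK substrates and targets, Pfkfb3, which drives glycolysis and is a direct AMPK substrate in macrophages, had 80.9 and 102 CPM under IgG and 203 and 131 CPM under anti-PD-L1 (0.87 ± 0.29, adjusted p = 0.702 in edgeR), and Gys1, muscle glycogen synthase, had a log2 fold change of −0.40 ± 0.25. Among 20 genes of insulin, PI3K and AKT signalling, 4 had an unadjusted edgeR p under 0.05 as higher values (20%, against 4.96% of all tested genes) and 1 as a lower value (5%, against 1.1%). The higher ones are leukocyte genes, the PI3K-gamma adaptor Pik3r5, the lipid phosphatase Inpp5d (SHIP1) and the catalytic subunits Pik3cg and Pik3cd. Pik3r5 had 3.05 and 5.91 CPM against 15.1 and 14.6 CPM (adjusted p = 0.343 in edgeR and 0.00221 in DESeq2), and Inpp5d 6.17 and 13.7 CPM against 27.7 and 34.7 CPM (adjusted p = 0.491 in edgeR and 0.0166 in DESeq2). Summed T cell markers (54.6 and 88.0 against 219 and 222 CPM) and macrophage markers other than Lyz2 (224 and 300.3 against 1113 and 998 CPM) had the same order of groups. Summed B cell markers overlapped. The part of any of these cells in these values was not tested. The ubiquitous Pik3ca and Pik3cb had log2 fold changes of −0.10 ± 0.14 and 0.07 ± 0.26. The lower one was the insulin receptor substrate Irs1, with 30.7 and 33.9 CPM against 24.3 and 23.0 CPM (−0.45 ± 0.15, adjusted p = 0.679 in edgeR). Pik3cg, Pik3cd, Pik3ca, Pik3cb and Irs1 were named after their values were seen.

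A list of 14 translation genes was headed effectors of mTORC1, which RSK1, the kinase encoded by Rps6ka1, is not. In that list Rps6ka1 had 28.6 and 30.6 CPM against 38.6 and 40.2 CPM (0.41 ± 0.14, adjusted p = 0.694 in edgeR), and Pdcd4, an inhibitor of eIF4A, had 0.22 ± 0.16. In the lists of pathways known to induce Ddit4 or the sestrins, 64 tested genes in all, Trp53inp1 and Mthfd2 had an unadjusted edgeR p under 0.05 as higher values (3.12%, against 4.96% of all tested genes) and Egln3 as a lower value (1.56%, against 1.1%). The median log2 fold changes were 0.08 for 16 targets of the integrated stress response, 0.14 for 14 glucocorticoid-induced genes, −0.12 for 14 hypoxia-induced genes, 0.13 for 12 p53-induced genes and 0.01 for 10 FoxO-induced genes. The glucocorticoid-induced genes of smallest p were Fkbp5 (0.33 ± 0.17) and Mt2 (0.44 ± 0.26). Of the hypoxia-induced genes, Egln3, a prolyl hydroxylase, had 130 and 88.2 CPM against 69.9 and 56.4 CPM (−0.79 ± 0.26, adjusted p = 0.681 in edgeR), and Slc2a1, a glucose transporter, had −0.53 ± 0.24. The part of any of these pathways in the Ddit4 value was not tested.

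Trp53inp1, a p53 target that takes part in stress-induced autophagy and cell death, had the smallest p of these lists. It had 26.2 and 26.98 CPM under IgG and 52.1 and 51.8 CPM under anti-PD-L1, giving a log2 fold change of 0.97 ± 0.13 (adjusted p = 0.2 in edgeR and 3.38e-05 in DESeq2). Cdkn1a, the best known p53 target, had 126 and 97.4 CPM against 89.2 and 69.5 CPM (−0.50 ± 0.23). Both genes had groups that did not overlap, in opposite directions. Of the integrated stress response targets, Mthfd2, a mitochondrial folate enzyme, had 9.57 and 9.38 CPM against 18.6 and 13.1 CPM (0.74 ± 0.24, adjusted p = 0.640 in edgeR), and Slc3a2, the heavy chain of amino acid transporters that feed mTORC1, had 0.44 ± 0.20. Of the FoxO-induced genes, those of smallest p were Irs2 (−0.39 ± 0.37) and Ccng2 (0.16 ± 0.26).

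**Figure D5:**
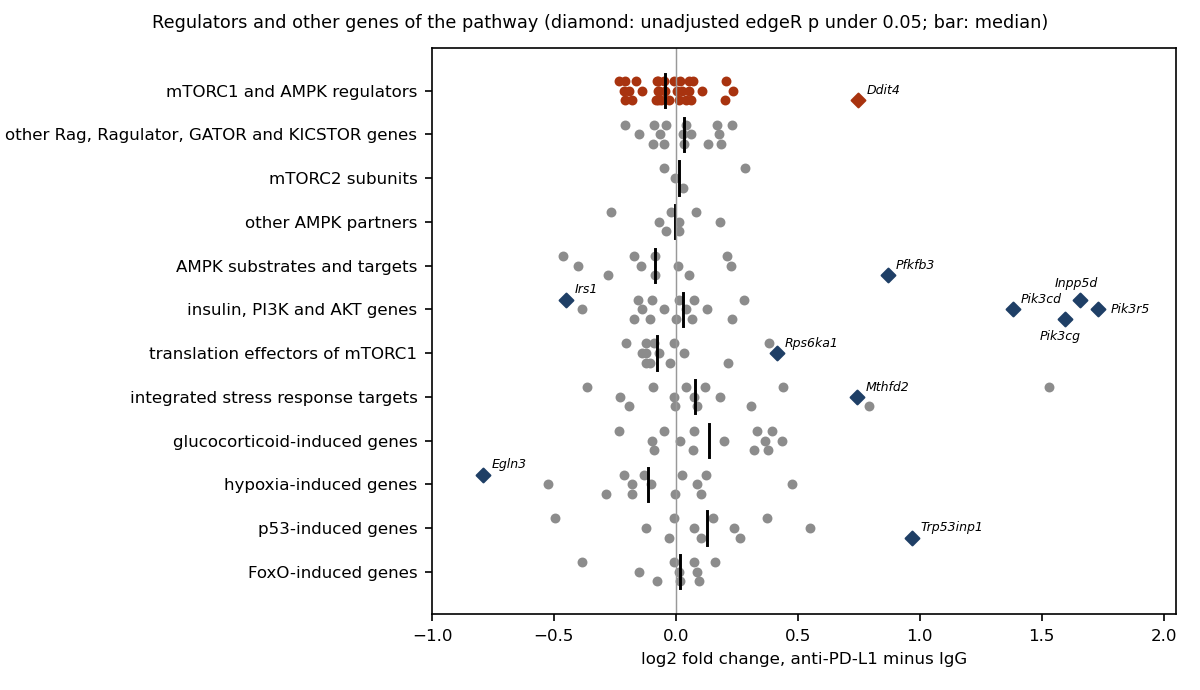
Log2 fold change (anti-PD-L1 minus IgG) of the 33 regulators and of the genes of 11 other lists, with diamonds for an unadjusted edgeR p under 0.05 and black bars for medians. All regulators but Ddit4 lie between −0.23 and 0.23, and the diamonds to the right are led by the leukocyte genes Pik3r5, Inpp5d, Pik3cg and Pik3cd.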

How the data were processed

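The deposited table gives unnormalized expected counts by gene symbol in 4 columns matched to libraries by the library name in the labels. Per the submitters' processing notes BWA and mm10 were used, while how reads were counted, with which gene models, strand option and filter, is not given in the sources used here. Each listed gene reached a count of 100 in at least 1 library. Blank cells (13, in 12 genes, none a regulator) were read as 0, and counts ending in 0.5 (20.5% of genes) were rounded. A count of 3, taken as the floor, is 0.0377 to 0.0397 CPM and covers counting error only. A check for duplicate libraries found none (chi-square between the libraries of a group over its degrees of freedom, 321 and 1060).

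The test was edgeR 4.0.16 (R 4.3.3) with filterByExpr, TMM factors and a robust quasi-likelihood F test with group as the only term, two-sided, adjusted over 16217 genes at a threshold of 0.05. Standard errors are the absolute log2 fold change over the square root of F, and 95% intervals use the moderated degrees of freedom (2 residual, median prior 2.42). The median biological coefficient of variation was 24.4%. An exact permutation test of 2 against 2 cannot go below p = 0.333. Alternatives used DESeq2 1.42.0, limma 3.58.1 (voom), other scalings and filters, the replicate number as a block and each library left out. The steps were tested on simulated data. Regulators, lists and alternatives were chosen with earlier results of these data known. Every regulator is given in all libraries, with fuller statistics for the 6 of smallest p, and 2 genes of smallest p per list.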

Additional observations from a re-analysis of the deposited data

How the results depend on the processing

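No setting of edgeR or limma voom called a gene at an adjusted p under 0.05, whether with another scaling, filter, the replicate number as a block or any 1 library left out. A threshold of 0.10 in edgeR gave 15 genes and 0 regulators. DESeq2 called 528 genes and 1 regulator, Ddit4, and, in fits added after seeing the data, 227 genes without IgG replicate 1, 515 without IgG replicate 2, 1139 without anti-PD-L1 replicate 1 and 785 without anti-PD-L1 replicate 2. These fits called 0 to 2 regulators (2, Deptor and Ddit4, without anti-PD-L1 replicate 1). With the replicate number as a block, edgeR gave Ddit4 0.75 ± 0.21 (adjusted p = 0.437) and called 0 genes. The same-numbered libraries' deviations correlated at 0.0998 across genes, and the labels do not say that a number marks a pair, so the block has no basis in the design. The regulators' median log2 fold change ranged from −0.085 to 0.031 with 1 library left out (0.031 without IgG replicate 2), and their median absolute log2 fold change from 0.081 to 0.23 (0.13 without IgG replicate 1, 0.14 without anti-PD-L1 replicate 1 and 0.23 without anti-PD-L1 replicate 2). Near 0, signs changed with the fit. Eif4ebp1 was −0.0096 with DESeq2, with its size factors and with upper-quartile factors, −0.020 with limma voom and −0.023 with the block. Rps6kb1 was −0.00064 with DESeq2, −0.00059 with its size factors and −0.0024 with upper-quartile factors, and Stk11 was 0.0070 with library size alone. The cause was not tested.

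With 1 library left out, 26 regulators changed sign in some fit, the single library left in a group being assumed to vary like the others. Their log2 fold changes ran as follows, Akt1 −0.24 to 0.067, Akt1s1 −0.47 to 0.21, Depdc5 −0.11 to 0.040, Deptor −0.22 to 0.53, Eif4ebp1 −0.30 to 0.24, Fnip1 −0.13 to 0.15, Fnip2 −0.33 to 0.63, Lamtor1 −0.046 to 0.40, Lamtor2 −0.19 to 0.34. For others the ranges were Mlst8 −0.085 to 0.17, Pdpk1 −0.36 to 0.044, Prkaa1 −0.10 to 0.13, Prkaa2 −0.54 to 0.039, Prkab1 −0.24 to 0.26, Prkab2 −0.88 to 0.41, Prkag1 −0.13 to 0.013, Prkag2 −0.23 to 0.28, Rheb −0.057 to 0.18. The rest had Rps6kb1 −0.094 to 0.097, Rptor −0.30 to 0.12, Rragc −0.026 to 0.14, Rragd −0.14 to 0.034, Sesn1 −0.30 to 0.13, Sesn3 −0.64 to 0.33, Stk11 −0.22 to 0.17, Tsc1 −0.23 to 0.081. Ddit4, Mtor, Tsc2, Tbc1d7, Sesn2, Flcn and Nprl2 kept their sign in every fit run. For Ddit4, Mtor, Tsc2, Tbc1d7 and Flcn, whose groups did not overlap, leaving out a library could hardly change it, so this adds no support.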
